A study of Mus musculus with 15 samples.

Results

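The replication-dependent histone genes of the mouse lie in clusters, and 67 of the 23337 gene symbols in the count files belong to them. They were taken by name, as every symbol that starts with Hist and a digit, leaving out 1 pseudogene symbol that ends in -ps. The 67 genes encode 6 H1, 18 H2a, 18 H2b, 12 H3 and 13 H4 histones. They were read in RNA-seq libraries of progenitor cells that had been sorted from mouse bone marrow, from wild-type (WT) mice and from mice labelled as a knockout (KO) of Trappc1, a subunit of the TRAPP complex that tethers transport vesicles. Common myeloid progenitors (CMP) lacked lineage markers and Sca1, carried CD117 and CD34 and were low for CD16/32, and granulocyte-monocyte progenitors (GMP) differed by a high CD16/32 signal. There were 4 libraries each of WT CMP, KO CMP and WT GMP and 3 of KO GMP, all untreated, with libraries numbered 1 to 4 in the labels and no KO GMP library 2 among those analysed here. The labels do not give the strain, the age, the kind of knockout allele or the cells it acts in, and they do not state whether each library was made from its own mouse, and the tests therefore weigh differences only against the scatter of the libraries at hand, which may be technical.

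Core histones (H2A, H2B, H3 and H4) form the protein spool of the nucleosome, and the linker histone H1 binds where DNA enters and leaves it. Cells make most of this protein in S phase from clustered genes whose transcripts are cut behind a conserved stem-loop instead of receiving a poly(A) tail. The stem-loop is bound by the protein SLBP, and some clustered genes also give longer, polyadenylated transcripts in cells that do not divide. In myeloid progenitors, which divide fast, these transcripts are a usual part of the RNA of cycling cells.

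The genes share features of place and sequence. Their place goes with their names, since genes with the same digit after Hist lie on the same chromosome. By the GENCODE M21 annotation (GRCm38, the assembly also called mm10), 54 of them lie on chromosome 13 between positions 21715763 and 23934851, 10 on chromosome 3 between 96219865 and 96270132, 2 on chromosome 11 and 1 on chromosome 6. A stem-loop with a perfect 6-base stem and a 4-base loop opening with TT was found in the annotated transcripts of 44 genes. The other 23 have no match in these transcripts, and 13 of those 23 have no 3′ UTR in the annotation. The 26-base stretches below, from the 3′ UTRs of genes named in the results, show the stem in capitals with its loop and 5 bases on each side in lower case. They stand for the kinds of loop found and for the genes with the firmest differences.
Hist1h1c: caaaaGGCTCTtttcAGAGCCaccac
Hist1h2bg: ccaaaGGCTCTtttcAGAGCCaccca
Hist1h2bj: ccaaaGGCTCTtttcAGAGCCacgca
Hist1h2bb: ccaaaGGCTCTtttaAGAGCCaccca
Hist2h2ac: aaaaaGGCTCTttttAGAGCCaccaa
Hist1h4n: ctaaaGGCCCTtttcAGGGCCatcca
Hist1h4i: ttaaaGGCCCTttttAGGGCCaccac
Hist1h4b: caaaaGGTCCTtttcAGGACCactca
The stem GGCTCT with its complement AGAGCC was found in 26 genes with the loop TTTC, in 6 with the loop TTTA and in 1, Hist2h2ac, with the loop TTTT. None of these 33 was an H4 gene. The 11 H4 genes with a match carried the stem GGCCCT (9 genes) or GGTCCT (2 genes). In 28 of the 67 gene models the transcript ran over 100 bases past the stem-loop or held a poly(A) signal (AATAAA or ATTAAA) in its last 50 bases.

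Promoter sequences from RefSeq (GRCm38.p6) were matched for 61 of the 67 genes, each from 250 bases before to 50 bases after the start site. Motifs were searched on both strands. CCAAT was found in 52 of the 61 windows (85.3%) and in 37.9% of all 27025 promoter windows. It was present in all H1, H2a, H2b and H3 windows matched and in 3 of 12 H4 windows. TATAAA was found in 57.4% (35 of 61, all promoters 14.2%). The octamer ATTTGCAT was found in 21.3% (13 of 61, all promoters 1.75%), in 7 H2a and 6 H2b windows only. AAACACA, a motif known from H1 promoters, was found in 14.8% (9 of 61, all promoters 7.14%) and in 5 of 6 H1 windows. Some H2a and H2b genes sit head to head, so their windows can overlap and hold the same motif. The 250 bases upstream of an H1, an H2b and an H4 gene are shown because these genes gave the 3 smallest p-values between library sets in GMP, with the motifs of either strand in capitals. A match is a description of letters and no site was tested.
Hist1h1c, chr13:23738557-23738806, plus strand: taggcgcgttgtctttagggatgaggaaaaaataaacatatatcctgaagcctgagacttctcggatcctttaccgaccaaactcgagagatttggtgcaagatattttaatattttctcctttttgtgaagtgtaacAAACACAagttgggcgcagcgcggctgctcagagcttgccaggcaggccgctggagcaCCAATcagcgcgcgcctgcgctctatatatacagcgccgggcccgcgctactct
Hist1h2bg, chr13:23571150-23571399, plus strand: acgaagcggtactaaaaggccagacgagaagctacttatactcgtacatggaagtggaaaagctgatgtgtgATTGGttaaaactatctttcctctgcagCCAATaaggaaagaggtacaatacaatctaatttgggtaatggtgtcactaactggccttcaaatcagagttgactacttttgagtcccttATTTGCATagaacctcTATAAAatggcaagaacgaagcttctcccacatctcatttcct
Hist1h4i, chr13:22041363-22041612, minus strand: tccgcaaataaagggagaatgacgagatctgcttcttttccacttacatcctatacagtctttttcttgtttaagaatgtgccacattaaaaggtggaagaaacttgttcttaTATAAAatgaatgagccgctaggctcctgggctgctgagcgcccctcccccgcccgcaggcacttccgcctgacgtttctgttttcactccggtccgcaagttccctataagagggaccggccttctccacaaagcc

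Library totals ran from 61278415 to 120299543 deposited counts. Trappc1 was read at 5.56, 3.83, 11.7 and 13.4 counts-per-million units (CPM, on library sizes scaled by edgeR's TMM) in KO CMP 1 to 4. In WT CMP it was read at 18.4 to 26.2 CPM. It was read at 6.09, 24.1 and 25.2 CPM in KO GMP 1, 3 and 4 and at 30.9 to 41.3 in WT GMP. Xist, which is expressed from the inactive X chromosome of female cells, was at 109, 204 and 123 CPM in KO CMP 1, KO CMP 2 and KO GMP 1 and at 2.17 CPM or less in every other library, so these 3 libraries stand apart. Of 7 genes of granulocyte-monocyte progenitors, 5 were called higher and 2 lower in WT GMP than in WT CMP, and all 4 megakaryocyte markers lower. Within WT CMP, the same 7 genes summed to 22431 and 24924 CPM in libraries 1 and 2 and to 12350 and 13251 CPM in libraries 3 and 4.

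Clustered histone transcripts made up 0.027% to 0.069% of the counts of a library. By length, the order of the levels was led by Hist1h1c (70.3 CPM per kb of exon, mean of 15 libraries), an H1 gene, Hist2h2aa2 (56.8), Hist1h2bg (46.4), Hist1h4i (37.9) and Hist1h2bc (35.2). The levels were concentrated in a few genes. Hist1h1c alone gave 23.5% of the summed CPM and the first 8 genes gave 63.3%. The mean was above 10 CPM for 8 genes, between 1 and 10 CPM for 49 and under 1 CPM for 10. Among the low ones were 3 genes known from the testis. Hist1h1t had a mean of 0.13 CPM. Hist1h2ba and Hist1h2aa had too few counts to be tested, which left 65 of the 67 genes in the fits.

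Between histone types, H1 gave a median of 27.9% of the summed level per library, H2a 28.8%, H2b 25.04%, H4 10.9% and H3 7.47%. These shares are of reads and depend on transcript length. Near-identical copies limit what the single genes show. In a median gene, 47.0% of the 50-base stretches of the transcripts also occurred in another clustered histone gene, and in 30 genes it was over 50%. Hist2h2aa2 shared all of its stretches with Hist2h2aa1, and Hist1h2ap shared 93.1% with Hist1h2ao. Hist1h2bq and Hist1h2br, which share 97.3% of the stretches of Hist1h2bq, moved between 0 and 11.3 and between 0 and 15.2 CPM, so their values are uncertain. The sources used here do not say how reads that match several genes were counted.

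The main divide ran between library numbers. In WT CMP, the 67 genes summed to 326 and 279.5 CPM in libraries 1 and 2 and to 559.5 and 669 CPM in libraries 3 and 4. In WT GMP, the sums were 309.7, 302 CPM and 555, 579 CPM in the same order. In KO CMP they were 324, 247 CPM and 635, 674 CPM. In KO GMP, library 1 gave 369.8 CPM and libraries 3 and 4 gave 563.6 and 612 CPM. Every library numbered 3 or 4 lay above every library numbered 1 or 2, for the sum and for each of the 5 types, across both genotypes and both sorts. The ratio of the mean sums was 2.03 in WT CMP, 1.85 in WT GMP, 2.29 in KO CMP and 1.59 in KO GMP. The labels do not say what the numbers mark. The sets 1 and 2 against 3 and 4 were drawn with earlier results of these data known, and whether they are a batch, a litter or a day was not tested. In bulk RNA, fewer cells in S phase and less histone RNA per cell cannot be told apart. How well transcripts without a poly(A) tail were captured in each library was not tested.

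**Figure D1:**
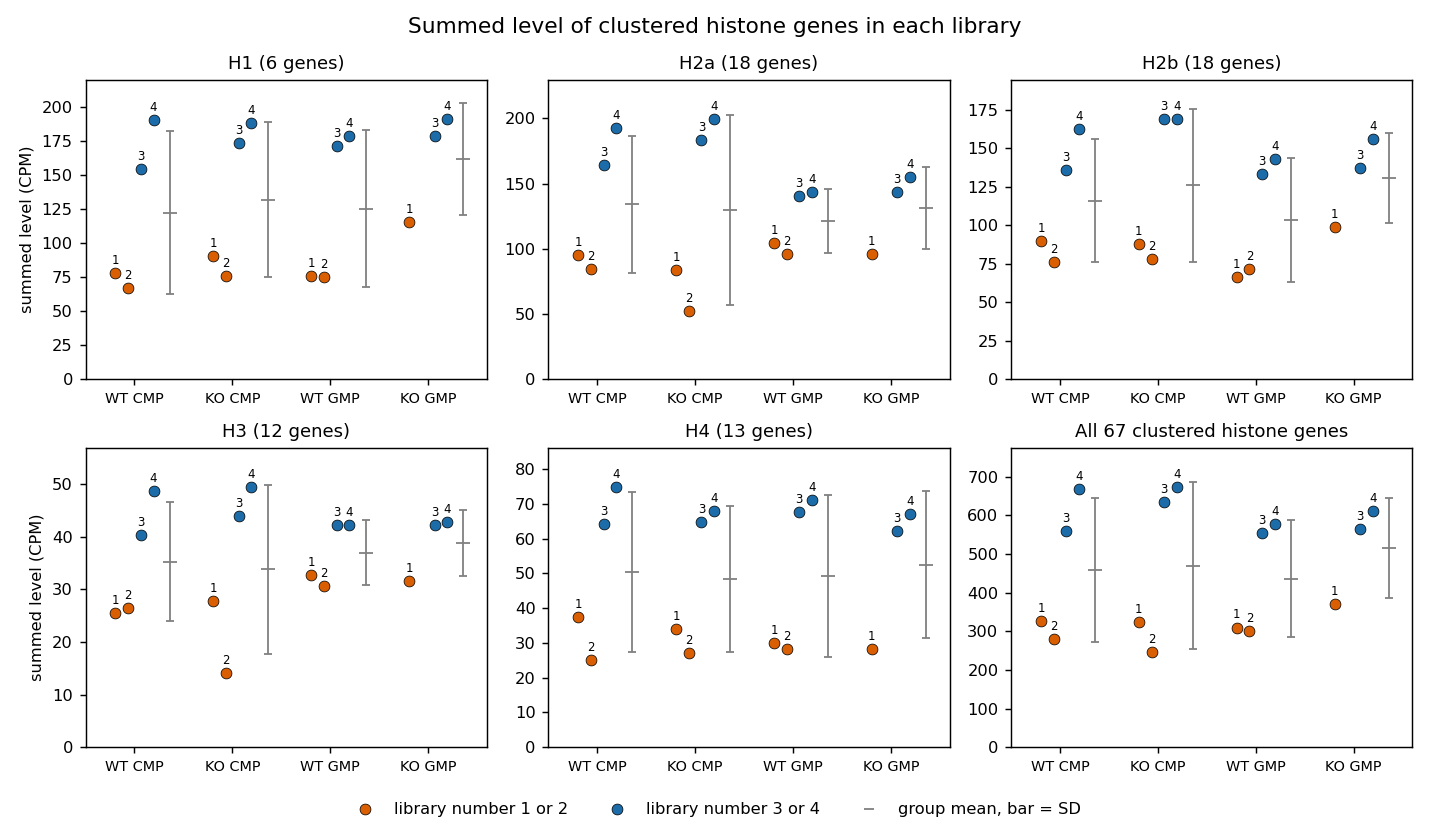
Summed level in CPM of the genes of each histone type and of all 67 genes (vertical axis, from 0) in each of the 15 libraries, by group on the horizontal axis; points carry the library number, orange for 1 and 2 and blue for 3 and 4, and grey marks give the group mean with its SD (n = 4, or n = 3 for KO GMP). In every panel all blue points lie above all orange points, for all 67 genes at 555 to 674 CPM against 247 to 370 CPM.

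Group by group, the size of the divide varied with the histone type. For H1 the mean sum was 2.39 times as high in libraries 3 and 4 as in 1 and 2 in WT CMP, 2.32 in WT GMP and 2.18 in KO CMP. For H4 it was 2.22, 2.38 and 2.18 times. For H2b it was 1.80, 2.0 and 2.03 times. H2a and H3 gave lower ratios in WT GMP, at 1.42 and 1.33, than in WT CMP, at 1.99 and 1.71, and higher ones in KO CMP, at 2.81 and 2.24. In KO GMP, with 1 library of numbers 1 and 2, the ratios were 1.61 for H1, 1.55 for H2a, 1.48 for H2b, 1.35 for H3 and 2.29 for H4. The spread of H2a and H3 in KO CMP was led by library 2, with 52.3 CPM of H2a and 14.0 CPM of H3 against 83.9 and 27.7 CPM in library 1.

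In WT CMP, 36 of 65 tested genes were called lower in libraries 1 and 2 than in 3 and 4 (edgeR's quasi-likelihood test, Benjamini-Hochberg adjusted p under 0.05), and none higher. Of all 15181 genes tested, 10.6% were called lower. The median log2 fold change of the 65 genes was -1.01, and that of all genes was -0.01. The 36 genes were 5 of 6 H1, 11 of 17 H2a, 13 of 17 H2b, 3 of 12 H3 and 4 of 13 H4. In WT GMP, 22 of 65 were called lower and none higher, against 5.45% of all genes called lower, with a median of -0.77. These were 5 of 6 H1, 3 of 17 H2a, 8 of 17 H2b, 1 of 12 H3 and 5 of 13 H4. Both counts fell when 1 library was left out, most without WT CMP 2 or 4 in CMP and without WT GMP 2 or 4 in GMP. Each such fit leaves 1 library in a set. Calls among all genes fell in each of these fits as well. The medians of these fits lay between -1.17 and -0.88 in WT CMP and between -0.86 and -0.78 in WT GMP.

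The KO CMP libraries, which share no sample with the WT comparisons, gave 45 of 65 genes called lower in libraries 1 and 2 (all genes 15.1%), with a median of -1.33. This comparison was added after the data had been seen, and it sets the 2 KO CMP libraries with Xist against the 2 without. They were 5 of 6 H1, 15 of 17 H2a, 12 of 17 H2b, 7 of 12 H3 and 6 of 13 H4. The count fell without KO CMP 2, 3 or 4 and rose without KO CMP 1, and each of these fits leaves 1 library in a set. Their medians lay between -1.71 and -1.07. Marker levels moved with these sets. In KO CMP 1 and 2 against 3 and 4, late neutrophil markers summed to 2.53 and 4.95 against 44.4 and 50.4 CPM. Granulocyte-monocyte progenitor markers summed to 5661 and 6248 against 12679 and 13096 CPM. Stroma and endothelium markers summed to 253 and 282 against 150.2 and 150.7 CPM. Of the latter, Col1a1, Col3a1, Cxcl12 and Sparc were higher in KO CMP 1 and 2. The endothelial Pecam1 was lower, at 134 and 113 against 146 and 147 CPM, and Cdh5 lay between 0 and 0.30 CPM. The part of all these markers in the result was not tested. In all 3 number-set comparisons, 20 of the 65 genes were called lower (all genes 1.58%), and 60 of 65 had a negative value (all genes 24.3%). The 20 were 5 H1 genes, Hist1h2ac, Hist1h2an and Hist2h2ac of H2a, 7 H2b genes, Hist1h3g of H3 and Hist1h4b, Hist1h4i, Hist1h4n and Hist4h4 of H4. In KO GMP, 55 of 65 genes were lower in library 1 than in both other libraries, as were 42.0% of all genes. Counted over all 15 libraries, 37 of the 65 genes had each of the 8 libraries of numbers 3 and 4 above each of the 7 of numbers 1 and 2, as did 2.37% of all tested genes.

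**Figure D2:**
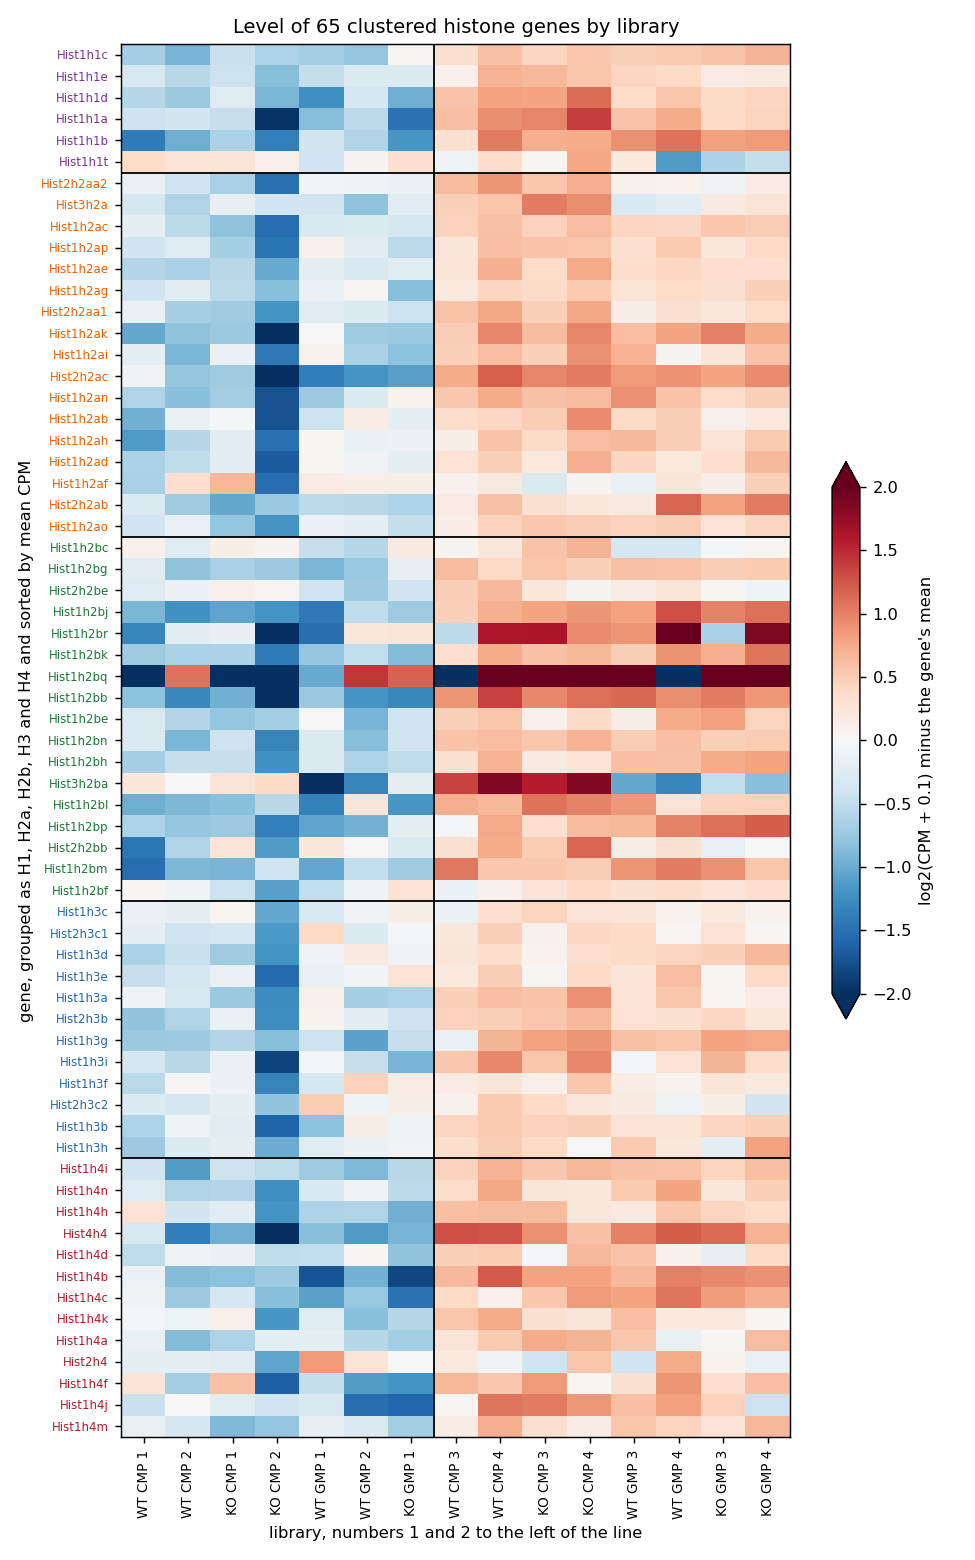
Level of the 65 tested genes (one line each, colour of the name by histone type) in the 15 libraries (columns), as log2(CPM + 0.1) minus the gene's mean over libraries; blue is below and red above that mean, and the scale ends at 2 in either direction. The 7 columns left of the vertical line are numbers 1 and 2 and are mostly blue, and the 8 columns right of it are mostly red; Hist1h1t, Hist1h2bc, Hist1h2bq and Hist3h2ba depart from this.

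Among linker histones, Hist1h1c was read at 63.5 and 53.1 CPM in WT CMP 1 and 2 and at 127 and 152 CPM in WT CMP 3 and 4. In WT GMP it was at 63.1 and 59.1 CPM against 141 and 146 CPM. In KO CMP it was at 74.6 and 66.1 CPM against 137 and 147 CPM, and in KO GMP at 103 CPM against 151 and 163 CPM. The number sets did not overlap in any group, and KO GMP 1 stood above the other 6 libraries of its set. The log2 fold change of numbers 1 and 2 against 3 and 4 was -1.26 ± 0.11 (SE) in WT CMP (adjusted p = 1.44e-05, edgeR), -1.23 ± 0.11 in WT GMP and -1.01 ± 0.11 in KO CMP. Hist1h1e, Hist1h1d, Hist1h1a and Hist1h1b were lower genes with the same order of sets. Hist1h1e lay at 4.15 to 6.24 CPM in the 7 libraries of numbers 1 and 2 and at 8.07 to 12.3 CPM in the other 8. Hist1h1b, with 1.30 to 2.75 CPM against 4.41 to 7.65 CPM, fell by 1.96 ± 0.30 on the log2 scale in WT CMP and by 1.52 ± 0.30 in WT GMP.

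Of the H2a genes, Hist2h2aa2 showed a divide in CMP that was small in GMP. It was at 25.3 and 21.1 CPM in WT CMP 1 and 2 and at 43.3 and 51.3 CPM in WT CMP 3 and 4, but at 26.9, 26.1, 29.6 and 29.2 CPM in WT GMP 1 to 4. The log2 fold change was -1.03 ± 0.21 in WT CMP, which passed the test, and -0.15 ± 0.20 in WT GMP, which did not. Hist3h2a, from the small cluster on chromosome 11, behaved alike by its values, with -0.99 ± 0.14 in WT CMP and -0.33 ± 0.14 in WT GMP. The difference between CMP and GMP in these values was not tested. Hist1h2ac was at 17.5 and 13.9 CPM in WT CMP 1 and 2 and at 27.8 and 30.5 CPM in 3 and 4, and its sets did not overlap over all 15 libraries. Hist1h2ap, at 4.06 to 12.2 CPM in numbers 1 and 2 and 13.4 to 17.4 CPM in numbers 3 and 4, gave the same picture.

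Among H2b genes, Hist1h2bg rose from 22.6 and 15.1 CPM in WT CMP 1 and 2 to 41.2 and 35.1 CPM in 3 and 4, and from 14.1 and 15.6 CPM to 39.95 and 39.3 CPM in WT GMP. The log2 fold changes were -1.02 ± 0.15 and -1.42 ± 0.15 (adjusted p = 6.44e-04 and 2.25e-04, edgeR). Hist1h2bj lay at 2.08 to 4.02 CPM in numbers 1 and 2 and at 8.04 to 14.3 CPM in numbers 3 and 4. Hist1h2bb lay at 0.56 to 1.49 CPM and 4.73 to 6.72 CPM, a fall of 2.27 ± 0.35 in WT CMP and of 2.08 ± 0.35 in WT GMP on the log2 scale. Hist1h2bc and Hist2h2be, which are known to give polyadenylated transcripts as well, had no stem-loop match. Hist1h2bc had a log2 fold change of -0.22 ± 0.11 in WT CMP and -0.16 ± 0.11 in WT GMP, neither of which passed. Hist2h2be passed in both, at -0.77 ± 0.15.

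Of the 12 H3 genes, 3 were called lower in WT CMP, 1 in WT GMP and 7 in KO CMP. The 4 with the highest level, Hist1h3c, Hist2h3c1, Hist1h3d and Hist1h3e, had means between 3.89 and 4.45 CPM. Hist1h3c lay at 3.95 and 3.78 CPM in WT CMP 1 and 2, at 3.97 and 5.50 CPM in WT CMP 3 and 4, and at 3.50, 4.14, 5.25 and 4.58 CPM in WT GMP 1 to 4, so the sets lay close. None of the 4 had its sets apart over all libraries. The median log2 fold change of the 12 H3 genes was -0.81 in WT CMP, -0.39 in WT GMP and -1.09 in KO CMP.

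Of the H4 genes, Hist1h4i was at 19.2 and 11.6 CPM in WT CMP 1 and 2 and at 34.7 and 40.7 CPM in 3 and 4. In WT GMP it was at 15.4 and 13.6 CPM against 37.8 and 37.5 CPM, and the sets were apart in KO CMP and KO GMP as well. Its log2 fold changes were -1.29 ± 0.18 in WT CMP and -1.38 ± 0.18 in WT GMP. Hist1h4n lay at 2.62 to 5.87 CPM in numbers 1 and 2 and at 7.23 to 10.9 CPM in numbers 3 and 4. Hist4h4, alone on chromosome 6, lay at 0.20 to 1.27 CPM and 2.47 to 4.08 CPM. Hist1h4b, at 0.39 to 1.48 CPM and 2.57 to 3.92 CPM, fell by 2.27 ± 0.39 in WT GMP on the log2 scale. Hist1h4h, with 1.04 to 3.07 CPM and 2.84 to 3.92 CPM, overlapped, since WT CMP 1 lay above KO CMP 4 and WT GMP 3.

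**Figure D3:**
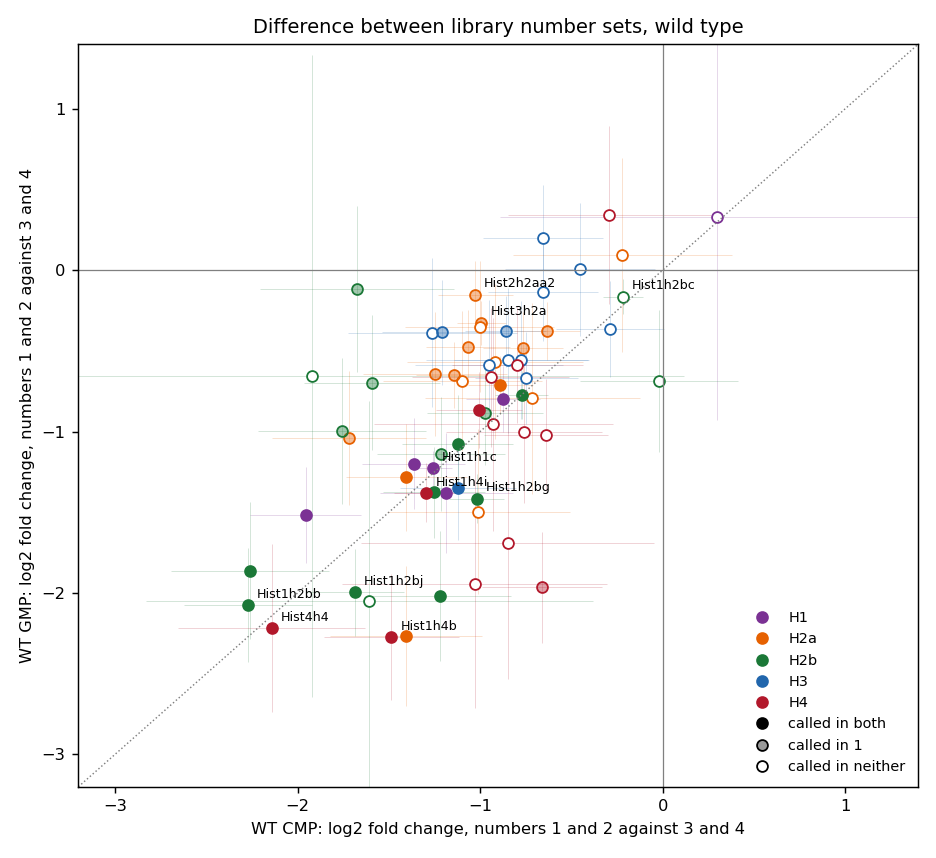
Log2 fold change of library numbers 1 and 2 against 3 and 4 in WT CMP (horizontal) and WT GMP (vertical) for the 65 tested genes, coloured by histone type, with thin bars for the SE and a dotted line of equal values; filled points passed the test in both sorts, half-tone points in 1 and open points in neither. Most points lie under 0 on both axes, with Hist1h1c at -1.26 and -1.23, and Hist2h2aa2 at -1.03 and -0.15.

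The 28 genes whose model runs over 100 bases past a stem-loop or ends with a poly(A) signal were set beside the other 37 tested. Many of the 37 have no stem-loop match, and they include Hist1h2bc, known to give polyadenylated transcripts. The classes therefore do not part polyadenylated from other transcripts. In WT CMP, 15 of the 28 were called lower, with a median of -0.96, and 21 of the 37, with a median of -1.06. In WT GMP the counts were 11 of 28 and 11 of 37, with medians of -0.74 and -0.79. RNAs that normally lack a poly(A) tail (a list of 6 chosen after the data had been seen) gave no call in either WT comparison, with medians of 0.30 in CMP and 0.05 in GMP. Rn45s, the ribosomal RNA precursor and the most abundant RNA of the list, was at 4278 and 5540 CPM in WT GMP 1 and 2 and at 1497 and 1364 CPM in WT GMP 3 and 4, a log2 fold change of 1.78 ± 0.59 (adjusted p = 0.08, edgeR). In WT CMP 1 to 4 it was at 2383, 6751, 4586 and 3364 CPM, so the sets overlapped there. Its part in the result was not tested. In the list, Rmrp, the RNA of a ribonuclease, had log2 fold changes of 2.55 ± 1.31 and 2.74 ± 1.30 with adjusted p of 0.19 and 0.21 (edgeR).

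Other genes of the histone pathway were tested in the same fits. Of 21 genes that regulate histone genes or process their RNA, 6 were called higher and 2 lower in numbers 1 and 2 of WT CMP (median 0.11), where 12.3% of all genes were called higher. In WT GMP 1 was called higher (median 0.07, all genes 3.16%). Ccne2, a cyclin that acts at the start of S phase, was higher by 0.79 ± 0.10 in WT CMP, as were Eri1, an exonuclease that trims histone mRNA, by 0.35 ± 0.07, and Casp8ap2, a factor of histone locus bodies, by 0.46 ± 0.12. Of 24 DNA replication genes, 1 was called higher (Rrm1, 0.26 ± 0.09) and 1 lower (E2f2, -0.30 ± 0.10) in WT CMP, with a median of 0.02. In WT GMP, 2 were called lower, Rrm2 at -0.36 ± 0.07 and E2f2 at -0.36 ± 0.10. Their summed level was 4570 and 4853 CPM in WT CMP 1 and 2 and 4455 and 4682 CPM in 3 and 4, which overlap. Of 18 histone chaperones, 1 was called higher and 3 lower in WT CMP, and 1 higher and none lower in WT GMP.

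Histone variants outside the clusters, most of which make polyadenylated transcripts through the cell cycle, fell in part. Of 11, 5 were called lower in numbers 1 and 2 of WT CMP and 2 in WT GMP, none higher. H1f0, the linker histone of resting and differentiating cells, had log2 fold changes of -1.09 ± 0.11 and -0.82 ± 0.11. In KO its sets did not divide that way, at 119, 91.6, 104 and 109 CPM in KO CMP 1 to 4. In KO GMP 1, 3 and 4 it was at 67.9, 53.2 and 54.1 CPM. H3f3b, which encodes the replacement histone H3.3, had -0.75 ± 0.11 and -0.62 ± 0.11 in WT. In KO CMP 1 to 4 H3f3b was at 1116, 1088, 1644 and 1756 CPM. H2afy, which encodes macroH2A, was at -0.41 ± 0.07 in WT CMP. Markers of other cells moved with the sets too. Late neutrophil markers (6 of 6 in the files) summed to 219 and 251 CPM in WT CMP 1 and 2 and to 23.8 and 33.1 CPM in 3 and 4, with 4 called higher and 2 lower. In WT GMP all 6 were called lower, at 273.5 and 254.7 CPM against 581.5 and 723 CPM. The histone divide had the same direction in both. The part of these markers in it was not tested.

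Trappc1 KO against WT gave no called clustered histone gene in either sort. In CMP, the 67 genes summed to 470 ± 216 CPM in KO (SD, n = 4) and 458 ± 186 in WT (n = 4), and in GMP to 515 ± 128 (n = 3) and 436 ± 151 (n = 4). The groups overlapped in both. No member and no gene at all (0% of 15181) passed edgeR's test in CMP. At an unadjusted p under 0.05 there was 1 member, and DESeq2 called none of the members and 360 of all genes. In GMP there was likewise no call among members or all genes (0%), and 1 member at an unadjusted p under 0.05. DESeq2 called none of the members and 60 of all genes there. The median log2 fold change of the members was -0.07 in CMP and 0.09 in GMP, where all genes had 0.01 in both. The difference between the KO effects in CMP and GMP gave no call among members or all genes (0%). No member had an unadjusted p under 0.05, and the member median was -0.15. For this difference DESeq2 called none of the members and 3 of all genes. The spread between number sets enters these fits as replicate error.

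The gene behind both single unadjusted values was Hist1h2bc. It was read at 42.8, 41.1, 58.8 and 63.6 CPM in KO CMP 1 to 4 and at 42.1, 33.1, 41.3 and 46.3 CPM in WT CMP 1 to 4, so these groups overlap. In KO GMP 1, 3 and 4 it was at 44.9, 38.5 and 40.8 CPM, and in WT GMP 1 to 4 at 28.7, 26.6, 31.0 and 31.1 CPM, with no overlap. The log2 fold change was 0.34 ± 0.14 in CMP, with an adjusted p of 0.37 by edgeR. In GMP it was 0.50 ± 0.15, with an adjusted p of 0.59, so neither passed. Hist3h2a had 0.38 ± 0.32 and 0.50 ± 0.35 with adjusted p of 0.72 and 0.91. Both genes also had positive values within numbers 3 and 4, given below, and again did not pass.

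Within numbers 3 and 4, no library had Xist above 0.30 CPM. Trappc1 was at 11.7 and 13.4 CPM in KO CMP 3 and 4 and at 18.8 and 25.2 CPM in WT CMP 3 and 4. It was at 24.1 and 25.2 CPM in KO GMP 3 and 4 and at 30.9 and 33.3 CPM in WT GMP 3 and 4. These KO libraries thus kept more Trappc1 RNA than KO CMP 1 and 2 and KO GMP 1. The KO and WT sums overlapped in each sort. They were 635 and 674 CPM in KO CMP, 559.5 and 669 in WT CMP, 564 and 612 in KO GMP, and 555 and 579 in WT GMP. No member was called in CMP (all genes 0.00659%) or in GMP (all genes 0.0132%), with 3 and 2 members at an unadjusted p under 0.05. DESeq2 called 1 member in CMP, Hist1h2bc, and none in GMP, against 138 and 43 of all 15181 genes. The medians were 0.07 and -0.04. The KO minus WT difference of Hist1h2bc was 0.48 ± 0.11 for CMP and 0.35 ± 0.11 for GMP, with edgeR adjusted p of 0.23 and 0.63. Hist3h2a was at 46.8 and 43.8 CPM in KO CMP 3 and 4 and 32.1 and 33.7 in WT CMP, and at 25.96 and 27.3 in KO GMP and 18.5 and 19.8 in WT GMP. Its differences of 0.46 ± 0.13 and 0.47 ± 0.13 had adjusted p of 0.30 and 0.52 (edgeR).

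Within numbers 1 and 2, 3 of 65 members were called lower in KO CMP than in WT CMP and none higher (all genes called lower, 10.2%), with a median of -0.25. All 3 were H2a genes. Hist1h2ac was at 11.5 and 6.96 CPM in KO CMP 1 and 2 against 17.5 and 13.9 CPM in WT CMP 1 and 2, a log2 fold change of -0.77 ± 0.18 (adjusted p = 0.01). Hist2h2aa2 was at 17.7 and 9.84 CPM against 25.3 and 21.1 CPM (-0.75 ± 0.21), and Hist1h2ap at 7.17 and 4.06 CPM against 8.68 and 9.47 CPM (-0.69 ± 0.22). KO CMP 2 was the lowest library for each. The count of called members moved without KO CMP 1, KO CMP 2 or WT CMP 1, and each of these fits leaves 1 library in a group. The median was 0.09 without KO CMP 2 and -0.80 without KO CMP 1, so its sign rested on KO CMP 2. The KO libraries of this comparison have Xist at 109 and 204 CPM, so genotype and whatever goes with Xist cannot be told apart here. In the same libraries 5 of 7 granulocyte-monocyte progenitor markers were called lower (summed level 5661 and 6248 CPM in KO, 22431 and 24924 CPM in WT). Of the stroma and endothelium markers 4 of 6 were called higher, where 8.23% of all genes were (253 and 282 CPM against 134 and 128 CPM). Col1a1, Col3a1, Cxcl12 and Sparc were higher in both KO libraries. The endothelial Pecam1 was at 134 and 113 CPM in KO and at 120 and 109 CPM in WT, and Cdh5 lay between 0 and 0.17 CPM. The part of all these markers in the result was not tested.

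The test of whether the KO effect in CMP differed between the number sets gave no member call (all genes 7.64%). There were 5 members at an unadjusted p under 0.05, and the median was -0.33. DESeq2 called 2 members and 1653 of all 15181 genes. Hist2h2be had the smallest p, at 0.70 ± 0.21 (adjusted p = 0.06), and Hist1h2ac followed with -0.78 ± 0.25 (adjusted p = 0.09, edgeR). For KO GMP 1 against WT GMP 1 and 2, a comparison added later that rests on 1 KO library assumed to vary like the other groups, 4 members were higher and 1 lower (all genes called in either direction, 20%). Hist1h1c was higher there by 0.75 ± 0.13, Hist1h2bc by 0.70 ± 0.13, Hist1h2bg by 0.67 ± 0.18 and Hist3h2ba by 1.78 ± 0.47, and Hist1h2ag was at -0.82 ± 0.23. KO GMP 1 had Xist at 123 CPM and other marker levels than WT GMP 1 and 2. The granulocyte-monocyte progenitor markers summed to 22415 CPM in it against 39771 and 40864 CPM, and the megakaryocyte markers to 283 against 97.4 and 89.1 CPM. Stroma and endothelium markers summed to 220 against 119 and 123 CPM and late neutrophil markers to 10.6 against 273.5 and 254.7 CPM. Their part in these differences was not tested.

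**Figure D4:**
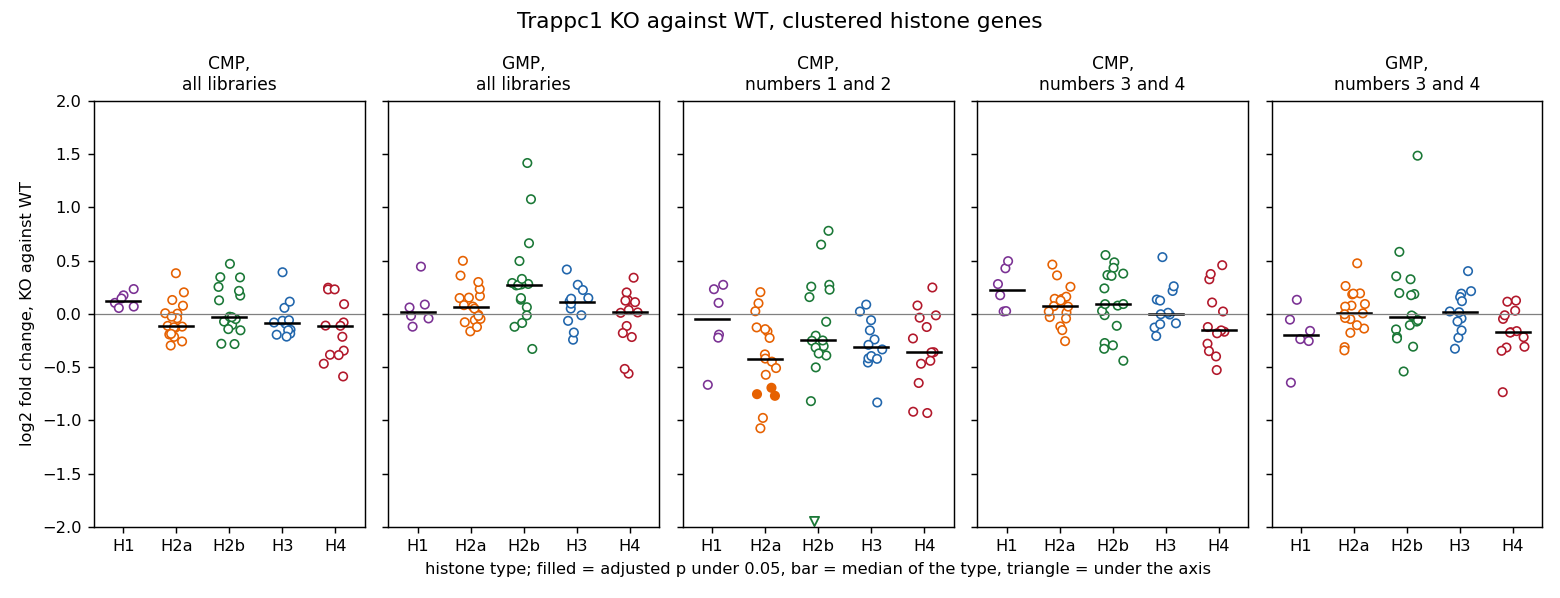
Log2 fold change of KO against WT (vertical axis) for the tested clustered histone genes, by histone type, over all libraries of CMP and GMP and within the library number sets; filled points passed edgeR's test at an adjusted p under 0.05, bars are the median of a type, and the triangle is 1 gene under the axis (Hist1h2bq, listed at 0 in both KO CMP libraries of numbers 1 and 2). Filled points are present in 1 panel, CMP numbers 1 and 2, with 3 H2a genes between -0.77 and -0.69.

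GMP and CMP differed in few clustered histone genes. In WT, 2 of 65 members were called lower in GMP and none higher (all genes called lower, 14.2%), with a median of 0.04. In KO, 1 was called lower and none higher (all genes called lower, 10.5%), with a median of 0.19. With the library number as a block the KO count was 2 lower and the median 0.03. A fit that adds a term for the number set gave 1 member lower and 1 higher (Hist1h3d, 0.59), with a median of 0.06. Hist3h2ba, the H2b gene of the chromosome 11 cluster, was at 1.42, 1.21, 3.27 and 4.68 CPM in WT CMP 1 to 4 and at 0.17, 0.42, 0.55 and 0.43 CPM in WT GMP, with no overlap. It was at 1.47, 1.61, 3.80 and 4.67 CPM in KO CMP and at 1.05, 0.83 and 0.64 CPM in KO GMP 1, 3 and 4, again with no overlap. Its log2 fold changes were -2.73 ± 0.53 in WT (adjusted p = 2.56e-03) and -1.78 ± 0.57 in KO (adjusted p = 0.04, edgeR). The KO call was lost without KO CMP 3 or 4 or KO GMP 3 or 4, with values between -1.77 and -1.44. Hist1h2bc, with the values given above, had a log2 fold change of -0.47 ± 0.14 in WT (adjusted p = 0.03) and had -0.32 ± 0.15 in KO (adjusted p = 0.16), where it did not pass. With the library number as a block it passed in KO as well, at -0.38. Its WT call was lost without WT CMP 1, 3 or 4 or WT GMP 1 or 2, with values between -0.47 and -0.42.

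The sorts were also compared within each number set. Within numbers 3 and 4, a comparison added after the data had been seen, 4 members were lower in WT GMP and none higher (all genes called in either direction, 38.5%), and 4 were lower in KO GMP and none higher (37%). They were the same 4 genes in both, Hist3h2ba, Hist3h2a, Hist1h2bc and Hist2h2aa2, with log2 fold changes of -3.01 ± 0.40, -0.78 ± 0.13, -0.50 ± 0.11 and -0.69 ± 0.20 in WT, and of -2.52 ± 0.39, -0.77 ± 0.13, -0.63 ± 0.11 and -0.61 ± 0.20 in KO. The WT and KO comparisons share no library. Within numbers 1 and 2, Hist3h2ba and Hist1h2bc were lower in WT GMP (2 of 65, all genes 25%). In KO the GMP arm of numbers 1 and 2 is the single library KO GMP 1, assumed to vary like the other groups. Against KO CMP 1 and 2 that fit gave 5 members higher and none lower (all genes 15.4%): Hist1h2an, Hist1h3d, Hist1h2ac, Hist1h1c and Hist2h2aa2. With 1 library in an arm, these values have no replicate check of their own.

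**Figure D5:**
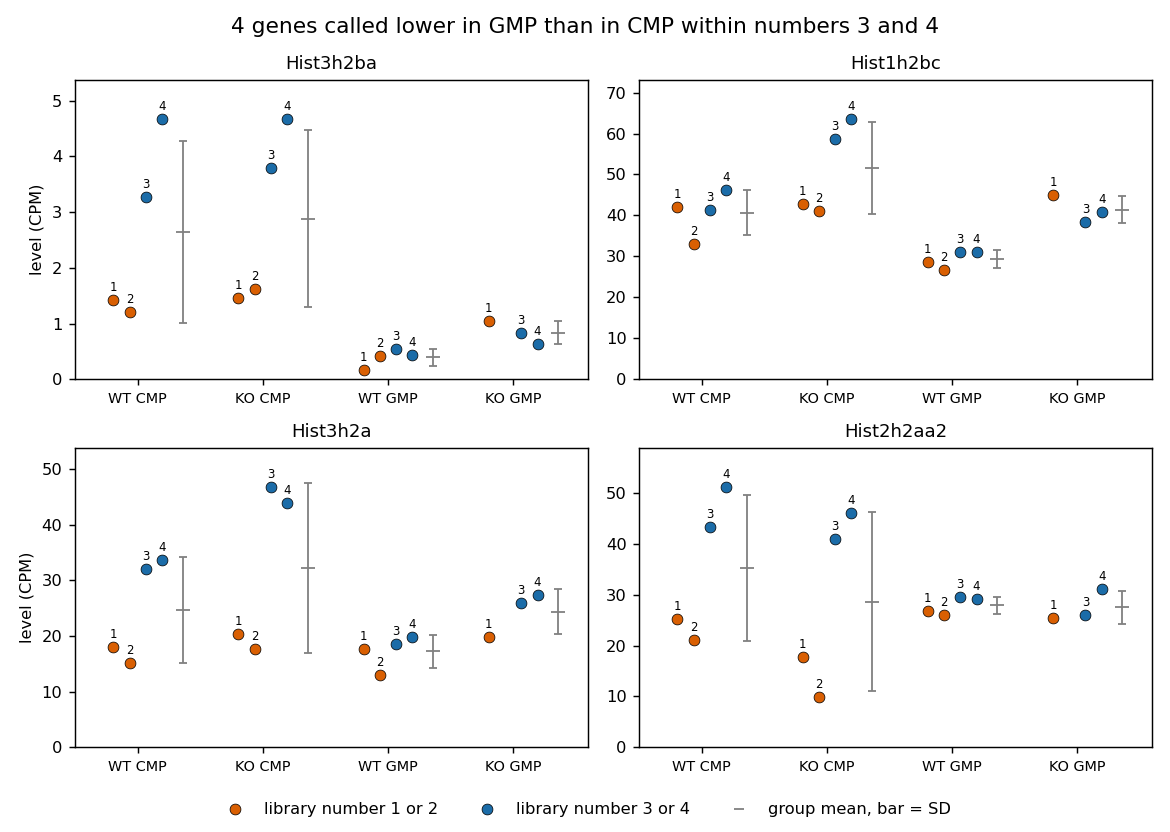
Level in CPM (vertical axis, from 0) of Hist3h2ba, Hist1h2bc, Hist3h2a and Hist2h2aa2 in the 15 libraries by group, orange for library numbers 1 and 2 and blue for 3 and 4, with the group mean and SD in grey. In numbers 3 and 4 each gene is lower in GMP than in CMP of the same genotype, for Hist3h2ba at 0.43 to 0.83 CPM against 3.27 to 4.68 CPM.

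Other genes of the pathway were also compared between the sorts. Of 24 DNA replication genes, 11 were called higher in WT GMP than in WT CMP and none lower, with a median of 0.22, where 11.3% of all genes were called higher. In KO 3 were called higher (all genes 10.7%). Cdc45, a helicase cofactor at the replication fork, was higher by 0.85 ± 0.08 in WT and by 0.69 ± 0.08 in KO, and Rrm2, a subunit of ribonucleotide reductase, by 0.92 ± 0.12 and 0.91 ± 0.13. Of 18 histone chaperones, 5 were called higher in WT GMP and none lower, among them Asf1b at 0.57 ± 0.09 and Hat1, which acetylates newly made H4, at 0.37 ± 0.08. Slbp was at 0.27 ± 0.10 and did not pass (adjusted p = 0.05, edgeR). Of 11 variants outside the clusters, 3 were called lower in WT GMP, H1fx at -1.33 ± 0.38, H2afy2 at -0.62 ± 0.19 and H2afy at -0.40 ± 0.13. Whether the clustered genes differ from these lists was not tested.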

How the data were processed

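RNA-seq of 15 mouse libraries was analysed. Per the labels, libraries were made with a SMARTER kit, and the submitters' processing notes name HISAT and mm10. No counting tool is named in the sources used here. The deposited values are expected counts per gene symbol, whole in every file. Of the values from 1 to 40, 38.0% were multiples of 4, where an even spread gives 25%, so 4 units were taken as 1 fragment in an alternative.

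Counts were tested with edgeR 4.0.16 (quasi-likelihood, TMM, filterByExpr, 15181 genes) in R 4.3.3, with 1 coefficient per group, or per group and number set (1 and 2, 3 and 4), and Benjamini-Hochberg adjustment at 0.05 over all genes. DESeq2 1.42.0 was an alternative. Fold changes are log2 values ± SE. No pair of libraries was identical. The members, lists and number sets were chosen with earlier results of these data known. Named were the 4 members of each histone type with the highest mean CPM. Up to 6 called members per direction and comparison by p were added, and up to 3 genes of each other list by p. Hist1h2ag, Hist1h2an, Hist2h2ac, Hist1h3g, Hist1h1t, Hist1h2ba, Hist1h2aa and the near-identical copies were named outside this rule, after values were seen.

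Library numbers were checked for pairing by the correlation of same-numbered deviations from group means. It was 0.18 to 0.35 between KO CMP and WT CMP, 0.14 to 0.21 between WT CMP and WT GMP, and 0.27 to 0.51 between KO CMP and KO GMP. All of these were above 0.1, but it was 0.07 for number 3 between KO GMP and WT GMP. KO CMP 1 matched WT CMP 2 best, KO CMP 3 matched WT CMP 4, and KO GMP 3 matched WT GMP 4. The deviations also hold the difference between number sets, so a positive value does not show pairing by number.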

Additional observations from a re-analysis of the deposited data

Results flagged for a closer look

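In groups of 4 libraries, 1 of 90 sets of values had a library far from the others, where chance gives about 1 in 20. Hist1h3c was at 5.50 CPM in WT CMP 4 and at 3.78 to 3.97 CPM in the other WT CMP libraries, a gap of 0.89 of the range.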

How the results depend on the processing

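Of 140 counts of called members under alternatives, 108 stayed within 1.5 times the reported count and 32 moved. With 1 library left out, the counts ran from 10 to 32 for the number sets in WT CMP (reported 36), 8 to 12 in WT GMP (22), 27 to 53 in KO CMP (45), 1 to 15 for KO against WT in CMP numbers 1 and 2 (3), 0 to 5 for the difference between number sets in the KO effect (0), 1 to 2 for GMP against CMP in WT (2) and 0 to 1 in KO (1). DESeq2 gave 6 for KO against WT in CMP numbers 1 and 2, 1 in numbers 3 and 4, and 2 for the difference between number sets. Of all 15181 genes it called 3410, 138 and 1653 in these comparisons. The count for the difference between number sets was 1 with RLE size factors and 1 with values divided by 4. The replicate block, with library number as a term, gave 2 for GMP against CMP in KO, as did the number set as a covariate, and changed no other count. Within number sets, GMP against CMP gave 4 in WT (numbers 3 and 4), and 5 and 4 in KO (numbers 1 and 2, 3 and 4), and KO against WT in GMP gave 5 (numbers 1 and 2). Hist2h2aa2 turned to 0.88 in GMP against CMP in KO within numbers 1 and 2. The cause of these changes was not tested. Of 3360 values for 24 named members, 3251 counted as unchanged, 72 lost the call, 36 gained one and 1 called value reversed. A change of direction where neither fit called the gene was counted as unchanged. The ratio of summed levels between number sets was 1.44 to 2.12 times without TMM in KO GMP and KO CMP. Genes near 1 CPM and near-identical copies are the least certain.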
